A study of Mus musculus with 14 samples.

Results

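The transcripts examined encode the oxidative phosphorylation system in mouse lung: the subunits of respiratory complexes I to IV and of the ATP synthase, complex V, with a few assembly factors. Members were taken by gene name, from the Nduf, Sdh, Uqcr, Cox and Atp5 families of the nuclear genome and the mt-Nd, mt-Co, mt-Cytb and mt-Atp genes of the mitochondrial genome. Names containing -ps were left out, and a mean of at least 1 CPM (counts per 1e+06 counts of a library) over the 14 libraries was required. Of 54347 genes in the count tables, 125 names matched, 14 of them with -ps and 7 under the CPM minimum, so that 104 members remained. Nuclear genes supplied 91 members (37 of complex I, 4 of complex II, 8 of complex III, 17 of complex IV, 17 of complex V and 8 assembly factors of complex I), and the mitochondrial genome supplied 13 (7, 0, 1, 3 and 2 for complexes I to V). Beyond their names, members were chosen by 1 measured value, the mean CPM. Just inside it were Cox7a1 at a mean of 1.22 CPM, Ndufaf6 at 3.38 and Cox6a2 at 5.89, and just outside it were Cox8b at 0.79 CPM, Cox7b2 at 0.0066 and Ndufa11b at 0.0039.

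The lungs came from C57BL/6 mice, and each of the 6 groups had received intranasal extract of the mould Alternaria alternata on 4 consecutive days (40 µl a dose, holding 2 mg), so no group was free of the allergen. In the chimera experiment, irradiated recipients, either wild-type mice (WT, n = 2) or mice carrying human JAK1 with a gain of function (GOF, n = 2), were given 1e+07 live marrow cells by vein within 24 hours, and the marrow was WT in both groups, so the variant sat in the host's own cells. JAK1 is a kinase that carries cytokine receptor signals. In the intrathecal (i.t.) experiment WT mice received resiniferatoxin (RTX, n = 3), which destroys sensory neurons bearing the TRPV1 channel, at 25 ng per mouse on 2 consecutive days, or 10 µl saline (n = 2). In the subcutaneous (s.c.) experiment WT mice received RTX in doses of 30, 70 and 100 µg/kg on 3 consecutive days (n = 3) or 100 µl saline (n = 2). Whether libraries of a group came from separate mice is not in the labels, nor are age and sex, so the p-values measure the spread between libraries.

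Oxidative phosphorylation passes electrons from NADH through complex I, or from succinate through complex II, to ubiquinone, on to complex III, cytochrome c and complex IV, and uses the resulting proton gradient to drive complex V. Complexes I, III, IV and V are assembled from proteins of both genomes, whereas complex II is wholly nuclear. Mitochondrial mRNAs are cut from long transcripts of a small circular genome by dedicated enzymes, while each nuclear subunit has its own promoter, so the supply of the 2 sets is controlled separately. In lung, alveolar type 2 cells and ciliated cells are rich in mitochondria. Because these are bulk samples, fewer cells of a type and less RNA per cell cannot be told apart.

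Libraries held 18198872 to 24393000 estimated counts. Lung markers were high in all 14: Sftpc, the surfactant protein of type 2 cells, lay between 5453 and 10323 CPM, the endothelial gene Pecam1 between 544 and 795, and the ciliated cell factor Foxj1 between 77.2 and 170. The tables hold mouse genes, and the human JAK1 transcript was not analysed here. A pair of transcripts sorted the libraries in a way the groups do not explain. Libraries in which Rps3a2 exceeded 2 CPM are called state A, those in which Hmga2 did state B, and those in which both stayed under that level state C. Both i.t. saline libraries were in state A and all 3 i.t. RTX libraries in state B, so in that experiment state and treatment cannot be told apart. In the chimeras 1 WT library was in state A and the other 3 libraries in state B. In the s.c. experiment the saline libraries were in states B and C, and the RTX libraries in states C, A and A.

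Mitochondrially encoded members made up 1.74% to 2.74% of all counts of a library and nuclear members 0.545% to 0.690%. The 13 mitochondrial genes thus carried 3.00 to 3.97 times the counts of the 91 nuclear ones, although mRNA had been enriched on oligo-dT beads and mitochondrial mRNAs carry short poly(A) tails. Levels of different genes were compared per length, as counts per base scaled to 1e+06 per library. On this per-length scale mt-Co1, the catalytic core of complex IV, was highest, at a mean of 8882 without copies and 8883 with them. Without copies, mt-Co1 was followed by mt-Cytb, the cytochrome b of complex III, at 4504 and mt-Co2 at 3890. With the counts of near-identical nuclear copies added, which are described below, mt-Co2 came to 6185, mt-Co3 to 5178, mt-Atp6 to 3438 and mt-Nd3 to 787, which places mt-Co2 and mt-Co3 above mt-Cytb and mt-Nd3 above mt-Nd6. Without copies, the lowest mitochondrial members were mt-Nd6 at 527, which lies on the opposite strand from the other 12, and mt-Nd3 at 220. Without a stated strand setting, reads of mt-Nd6 cannot be told from antisense transcripts of the other strand.

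The highest nuclear member per length was Atp5b, the catalytic beta subunit of ATP synthase, at 661, then Cox6a1 at 596 and Cox4i1 at 501, both nuclear subunits of complex IV. Nuclear medians on the same per-length scale were 96.7 for complex I, 141 for complex II, 138 for complex III, 159 for complex IV, 194 for complex V and 15.6 for the assembly factors, which act before the finished complex and are not part of it. The mitochondrial medians were 1527 for complex I, 3890 for complex IV and 1840 for complex V. Cox7a1, the heart and skeletal muscle form of a complex IV subunit, was the lowest member at 5.35.

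Several mitochondrial genes shared their sequence with a copy in the nuclear genome that was counted as a gene of its own. A block of unprocessed pseudogenes on the minus strand of chromosome 1 (GRCm38) held Gm28661 at chr1:24614885-24615565, Gm10925 at chr1:24613974-24614651, Gm28437 at chr1:24613189-24613971 and Gm28438 at chr1:24612775-24613119. Over 681 bases Gm28661 was identical to mt-Co2, over 678 bases Gm10925 to mt-Atp6, and over 783 bases Gm28437 to mt-Co3. Gm28438 matched mt-Nd3 at 344 of 345 bases, with the substitution T3C counted from the first base of mt-Nd3 (mitochondrial base first). The first 45 bases of these pairs are shown because a read from them cannot be assigned by sequence, apart from the base in capitals where the mt-Nd3 pair differs. The mitochondrial stretches are chrM:7013-7057 and chrM:9459-9503 on the plus strand, and the copies chr1:24615521-24615565 and chr1:24613075-24613119 on the minus strand.
mt-Co2: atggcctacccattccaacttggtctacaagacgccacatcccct
Gm28661: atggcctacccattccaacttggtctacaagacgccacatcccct
mt-Nd3: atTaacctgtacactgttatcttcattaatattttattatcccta
Gm28438: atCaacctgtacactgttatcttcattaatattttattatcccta

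The copies took a large and uneven part of the counts. For mt-Co2, an electron-accepting subunit of complex IV, the member had 2120 and 1104 CPM in the WT recipients and 2075 and 1037 in the GOF recipients, while Gm28661 had 130.4 and 920.5, then 767 and 924. Each recipient group thus held a high and a low library, and the groups overlapped. Member plus copy came to 2250 and 2024 in WT and 2842 and 1962 in GOF recipients. Over all 14 libraries the mean spread within groups (coefficient of variation, CV) was 26.9% for mt-Co2 alone and 10.3% for the sum. The same change from member to sum was 18.6% to 10.1% for mt-Co3, 21.4% to 10.2% for mt-Atp6 and 22.1% to 10.2% for mt-Nd3.

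Gm28437 held 48.2% to 70.8% of the mt-Co3 sum, depending on the library. Gm28438 held 56.8% to 82.5% of the mt-Nd3 sum, Gm10925 9.15% to 41.5% of the mt-Atp6 sum and Gm28661 5.80% to 53.2% of the mt-Co2 sum. A copy of part of mt-Co1, Gm29216, took at most 0.026%. Among all 13 mitochondrial members the median within-group CV was 9.59%, against 7.46% for the 91 nuclear ones. The levels of mt-Co2, mt-Co3, mt-Atp6 and mt-Nd3 alone, per-length levels included, are therefore uncertain, and each is given below with its copy added.

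**Figure D1:**
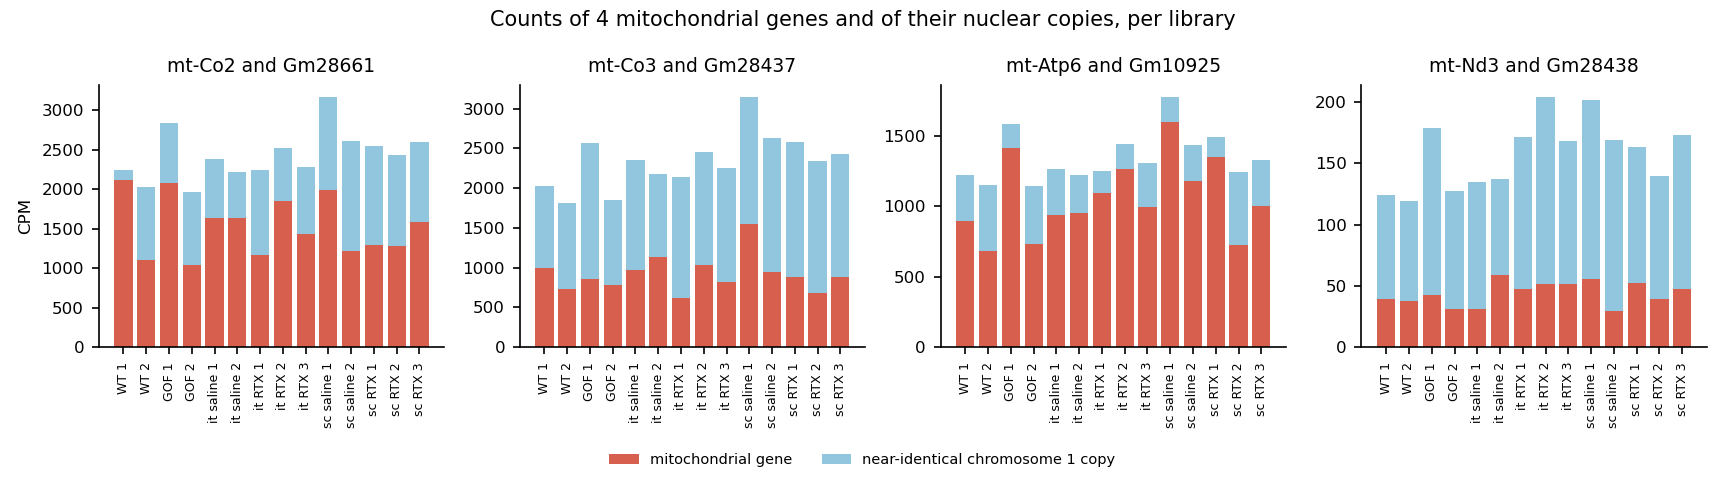
Counts of mt-Co2, mt-Co3, mt-Atp6 and mt-Nd3 (red) and of their near-identical chromosome 1 copies (blue), in CPM on the y axis, stacked for each of the 14 libraries on the x axis. For mt-Co2 the boundary between red and blue moves more between WT recipients 1 and 2 (130.4 and 920.5 CPM in the copy) than the total height does (2250 and 2024 CPM).

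Nuclear members had copies too. Atp5g2, which encodes a precursor of the ATP synthase c subunit, averaged 9.91 CPM, whereas Gm10175, a transcribed processed pseudogene at chr7:23946646-23947290 identical to it over 645 bases, averaged 97.4 and held 87.9% to 93.9% of their sum. Ndufb4 and its annotated processed pseudogene Ndufb4c, a member by name, were identical over 390 bases, so their 15.0 and 13.5 CPM cannot be divided between them with certainty. In 7 members, copies held over 10% of the sum of member and copies, and 41 had some copy at all. Mitochondrial genes can also overlap within their own genome. The start of mt-Atp6 lies inside mt-Atp8, both subunits of complex V, and the shared 43 bases at chrM:7927-7969 are printed because reads from them belong to either gene.
mt-Atp8 and mt-Atp6 overlap: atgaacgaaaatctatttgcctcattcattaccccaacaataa

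The chimera comparison asked how lungs of recipients with overactive JAK1 differed from WT recipients with the same marrow. The 3 largest log2 fold changes belonged to the complex IV isoforms Cox7a1, Cox6a2 and Cox6b2, and most nuclear subunits lay slightly higher in GOF recipients, but no member passed an adjusted p of 0.05 in edgeR's quasi-likelihood test over 17298 genes. Of all genes 0.717% passed. At an unadjusted p under 0.05, 16 members were higher and 1 lower (4.63% and 6.94% of all genes), and all 17 were nuclear. DESeq2 called 1 member, Cox6a2 (1.76% of all genes), and limma voom called 0 (0.26%), with 11 members higher and 1 lower at an unadjusted p under 0.05 in each. Of all 17298 genes, 525 were higher and 920 lower at that limit in DESeq2, and 780 and 1182 in voom. The median log2 fold change was 0.23 for nuclear members, 0.14 for mitochondrial members and 0.00 for all genes, and 88 of 91 nuclear and 10 of 13 mitochondrial members lay above 0 (50.1% of all genes). In 42 members both GOF libraries were above both WT libraries and in 1 both were below (21.1% and 21.9% of all genes, 43% in either direction).

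Library GOF 1 was the higher of its pair in 87 of 91 nuclear and 13 of 13 mitochondrial members. Without it, the nuclear median log2 fold change was 0.06 and the mitochondrial median -0.04, with 2 members higher and 1 lower at an unadjusted p under 0.05 (2.27% and 4.76% of all genes). Without GOF 2 the medians were 0.35 and 0.33, with 48 higher (5.76% of all genes). Without WT 1 there were 7 higher members (5.15% of all genes) and without WT 2 there were 24 (3.92%), and the mitochondrial median was 0.24 and 0.10. When library state entered a fit of 14 libraries, the nuclear median was 0.16 and 5 members were higher at an unadjusted p under 0.05 (5.03% of all genes). The near-identical copies also bore on the comparison between genomes: with them added, the mitochondrial median was 0.21 with 13 of 13 above 0, beside 0.23 for the nuclear members, and 0 members were called (0.734% of all genes).

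By complex, the nuclear medians on the log2 fold change scale were 0.25 for complexes I and IV, 0.24 for complex III, 0.19 for complex V, 0.26 for the assembly factors and 0.08 for complex II. All 4 genes of complex II, which encode succinate dehydrogenase, lay between -0.03 (Sdha, the flavoprotein) and 0.15 (Sdhd, a membrane anchor). Uqcr11, a small subunit of complex III, had 30.4 and 30.5 CPM in WT and 47.8 and 40.2 in GOF recipients. Both GOF values were above both WT values, a log2 fold change of 0.54 ± 0.13 (SE), with an adjusted p of 0.0988. Ndufs7, an iron-sulfur subunit of complex I, had 38.4 and 44.2 CPM in WT and 62.1 and 49.1 in GOF recipients, at 0.44 ± 0.14 and an adjusted p of 0.236, again without overlap. Cox4i1, the common form of the first nuclear complex IV subunit, lay at 0.36 ± 0.15 (adjusted p of 0.366). Uqcr11, Ndufs7 and Cox6a2 passed with no filter on low counts, which tests 28728 genes and calls 2.81% of them.

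These isoforms are known from muscle and other tissues. Cox6a2, the heart and skeletal muscle form of subunit 6A (chr7:128205435-128206387, GRCm38), had 6.81 and 6.94 CPM in WT recipients and 15.3 and 11.01 in GOF recipients. Both GOF libraries were above every other library of the series, and the fold change against WT was 1.93 (log2 0.95 ± 0.21, adjusted p of 0.0702). It passed 0.05 in DESeq2, without the filter, and when WT 1 or WT 2 was left out, where 5.16% and 1.69% of all genes passed. Cox7a1 had 0.52 and 1.05 CPM in WT and 2.28 and 1.64 in GOF recipients, at log2 1.33 ± 0.46 and an adjusted p of 0.267. Cox8b, another muscle form that fell short of the CPM minimum, had 0.71 and 0.96 CPM in WT and 2.78 and 1.54 in GOF recipients. Cox6b2, known as the testis form of subunit 6B, had 9.91 and 10.6 CPM in WT and 16.6 and 13.4 in GOF recipients (log2 0.56 ± 0.18, adjusted p of 0.217).

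Per length, Cox6a2 was 3.44% and 3.17% of the sum of Cox6a1 and Cox6a2 in WT recipients and 5.11% and 4.71% in GOF recipients. Cox7a1 was 2.63% and 4.65% of the sum of Cox7a1 and Cox7a2 in WT and 7.898% and 7.002% in GOF recipients. The muscle forms thus remained a small share of each pair, and in these 2 pairs the share was higher in both GOF libraries than in both WT libraries.

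Heart muscle markers moved with these isoforms. Of the 16 heart markers 8 passed the test and were higher in GOF recipients, 15 of 16 lay above 0 with a median log2 fold change of 1.14, none was at 0 CPM in any library, and their summed level was 302 to 421 CPM in WT and 656 to 664 in GOF recipients. Tnnt2, a thin filament protein of heart, was called at 1.097 ± 0.14 (adjusted p of 0.0114), Myl7, an atrial myosin light chain, at 1.36 ± 0.18 (adjusted p of 0.0158) and Sln, an atrial regulator of the calcium pump, at 1.51 ± 0.22 (adjusted p of 0.0183). Of 11 skeletal muscle markers tested none passed, with sums of 24.5 to 30.8 CPM in WT and 24.1 to 42.8 in GOF recipients, and Myod1 was at 0 in 1 of the 4 libraries. Of 9 fat markers tested none passed either, although all 9 lay above 0 and the sums were 44.5 to 56.6 and 90.3 to 133 CPM. Ucp1, the brown fat uncoupler, was at 0 in WT 1 and GOF 1 and at most 0.0549 CPM in the other two. The part of these tissues in the isoform values was not tested.

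Markers of alveolar type 2 cells summed to 14485 and 15136 CPM in WT and 17777 and 15459 in GOF recipients, without overlap and highest in GOF 1, with 3 of 8 above 0 and 0 called. Among them Sftpc had 6088 and 6152 CPM in WT and 9202 and 7068 in GOF recipients. Ciliated cell markers summed to 508 to 516 CPM in WT and 632 to 680 in GOF recipients, with none of 8 called. Macrophage and monocyte markers summed to 1678 to 2433 and 839 to 845 CPM, with 2 of 8 called lower. Lymphocyte markers summed to 139 to 148 and 73.2 to 98.8 CPM, with 2 of 8 called lower, and granulocyte markers to 292 to 353 and 177 to 254, with 1 of 7 called lower. The 10 heat shock genes summed to 2498 to 3621 and 3674 to 4047 CPM, with 0 called. Their part in the values of the nuclear members was not tested.

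No mitochondrial member passed an unadjusted p of 0.05 in the chimeras. In 1 of 13, mt-Nd4l, the groups did not overlap, against 43% of all genes in either direction. For mt-Atp6, the proton channel subunit of complex V, the WT recipients had 894 and 681 CPM and the GOF recipients 1416 and 736, a log2 fold change of 0.46 ± 0.30 with overlapping groups. With Gm10925 added it was 0.21, and without GOF 1 it was -0.09. For mt-Co2, mt-Co3 and mt-Nd3 the values were -0.04, -0.07 and -0.05 alone and 0.18, 0.21 and 0.34 with their copies. The smallest unadjusted p of a mitochondrial member, with an adjusted p of 0.456, belonged to mt-Nd4l (171 and 171 CPM in WT, 225 and 188 in GOF recipients). For Atp5g2 the lower value in GOF recipients (12.1 and 9.64 CPM in WT, 7.57 and 7.16 in GOF, log2 -0.56 ± 0.20, adjusted p of 0.282) became 0.10 with Gm10175 added.

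**Figure D2:**
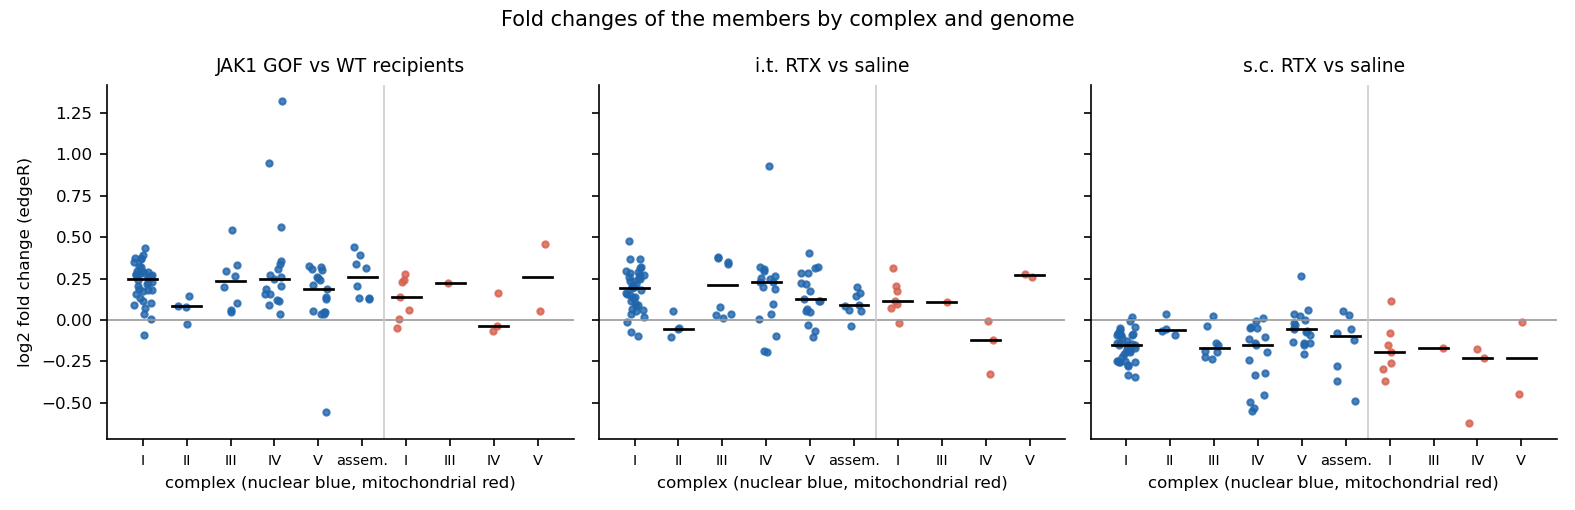
Log2 fold change (edgeR, y axis) of each member in the 3 comparisons, by complex on the x axis, with nuclear members in blue, mitochondrial members in red and black lines for medians. Nuclear medians lay above 0 in the chimeras (0.23) and after i.t. RTX (0.16) and below 0 after s.c. RTX (-0.14), and complex II was nearest 0 of the nuclear complexes in the first 2 panels.

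Intrathecal RTX was compared with saline, the design's contrast for nerve ablation through the spinal canal. Most nuclear subunits of complexes I, III and IV lay slightly higher after RTX, and no member passed in edgeR over 17360 genes, of which 0.311% passed. At an unadjusted p under 0.05, 29 members were higher and 0 lower (5.85% and 5.63% of all genes), 26 of them nuclear and 3 mitochondrial. DESeq2 called 1 member, Ndufa12 (1.46% of all genes), and limma voom 0 (0.213%), with 20 and 24 members higher at an unadjusted p under 0.05. Of all 17360 genes, 789 and 940 were higher at that limit. Median log2 fold changes were 0.16 for nuclear members, 0.11 for mitochondrial members and 0.01 for all genes. Above 0 lay 78 of 91 nuclear and 9 of 13 mitochondrial members (51.5% of all genes). In 48 members all 3 RTX libraries were above both saline libraries and in 2 all were below (15.5% and 14.8% of all genes, 30.3% in either direction).

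Ndufa12, an accessory subunit of complex I (chr10:94198720-94221443, GRCm38), had 34.2 and 34.5 CPM after saline and 44.7, 52.1 and 45.1 after RTX. The saline libraries were nearly equal and every RTX library stood above them, at a log2 fold change of 0.48 ± 0.09 and an adjusted p of 0.0783. Uqcrq, a small subunit of complex III, had 46.3 and 44.7 CPM after saline and 55.3, 64.8 and 55.6 after RTX, at 0.38 ± 0.09 (adjusted p of 0.146). For Uqcrb, which binds ubiquinone in complex III, the values were 55.1 and 53.1 CPM after saline and 65.1, 75.7 and 62.3 after RTX, at 0.34 ± 0.09 (adjusted p of 0.208). Ndufs4, an accessory subunit of complex I, had 27.1 and 24.1 CPM after saline and 30.2, 36.1 and 31.9 after RTX, at 0.37 ± 0.11 (adjusted p of 0.230). In each of these 4 genes library RTX 2 was the highest and the groups did not overlap. Without the filter on low counts 11 members passed, these 4 among them, and 2.27% of 28904 genes.

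Nuclear medians were 0.20 for complex I, 0.21 for complex III, 0.23 for complex IV, 0.13 for complex V, 0.09 for the assembly factors and -0.05 for complex II on the log2 fold change scale. The large catalytic subunits differed less: Ndufs1, which carries iron-sulfur clusters of complex I, had 80.9 and 73.8 CPM after saline and 70.5, 75.5 and 71.7 after RTX. Atp5b had 725 and 711 CPM after saline and 716, 752 and 762 after RTX. Both genes overlapped between groups. Cox7a1 had 0.82 and 0.77 CPM after saline and 1.32, 1.92 and 1.27 after RTX (log2 0.93 ± 0.37, adjusted p of 0.388).

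Of the mitochondrial members, mt-Atp6, mt-Nd4l and mt-Nd6 were higher at an unadjusted p under 0.05. For mt-Atp6 the values were 939 and 951 CPM after saline and 1099, 1264 and 999 after RTX (log2 0.26 ± 0.10, adjusted p of 0.381), without overlap, and the log2 fold change was 0.12 with Gm10925 added. For mt-Nd4l it was 0.31 ± 0.12 and for mt-Nd6 0.21 ± 0.08 (adjusted p of 0.385 and 0.398). Both mt-Co2 at -0.12 and mt-Co3 at -0.33 were below 0 alone, and with their copies they came to 0.05 and 0.03. The value of mt-Nd3 was 0.18 alone and 0.43 with Gm28438 (adjusted p of 0.121). Without its copy, mt-Nd3 lay at 0.72 when saline 2 was left out and at -0.22 without saline 1. Counting the copies, 11 of 13 mitochondrial members lay above 0, with the median at 0.11.

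Library RTX 2 was the highest of its group in 80 of 91 nuclear and 12 of 13 mitochondrial members. Without it the nuclear median was 0.09, and 12 members were higher and 3 lower at an unadjusted p under 0.05 (5.54% and 5.45% of all genes). Without saline 1 there were 11 higher (3.21% of all genes), and without saline 2 there were 8 higher and 1 lower (3.63% and 3.78%). When state entered a joint fit of the 14 libraries, the nuclear median was 0.02, the mitochondrial median 0.06 and 1 member was higher (2.07% of all genes), with 54 of 91 nuclear members above 0. That fit draws on states in the other experiments, since within this one state follows treatment. Heat shock genes also moved with treatment: of 10, 2 were called higher and 3 lower, with sums of 5891 to 6077 CPM after saline and 4794 to 5776 after RTX. Hspb1, a small heat shock protein, was called at 1.92 ± 0.12 (adjusted p of 0.000227) and Hspa1b, an inducible chaperone, at -2.58 ± 0.26 (adjusted p of 0.0449). Granulocyte markers summed to 84.8 to 95.6 CPM after saline and 99.8 to 131 after RTX, without overlap, with 7 of 7 tested above 0 and 0 called. Library RTX 2 was also the highest of its group for heart markers (368 CPM, against 166 and 201 in the other RTX libraries and 175 and 277 after saline) and skeletal muscle markers (37.7 CPM, against 15.8 and 22.8, and 9.46 and 25.4 after saline). The part of these genes and cells in the members' values was not tested.

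Subcutaneous RTX was compared with saline, the contrast for ablation by the systemic route. Both sets of members lay slightly lower after RTX, in the opposite direction to the i.t. comparison, and 0 members passed in edgeR over 17363 genes, where 0% of all genes passed. At an unadjusted p under 0.05, 22 members were lower and 0 higher (9.19% and 8.97% of all genes), 19 of them nuclear and 3 mitochondrial. DESeq2 called 3 members, Ndufa9, Ndufa4 and mt-Nd1 (4.38% of all genes), and limma voom 0 (0%), with 18 and 22 members lower at an unadjusted p under 0.05. Of all genes, 1364 of 17360 in DESeq2 and 1610 of 17363 in voom were lower at that limit. Median log2 fold changes were -0.14 for nuclear members, -0.19 for mitochondrial members and -0.00 for all genes. Below 0 lay 80 of 91 nuclear and 12 of 13 mitochondrial members, whereas 49.2% of all genes lay above 0. In 49 members all 3 RTX libraries were below both saline libraries and in 0 all were above (19.5% and 18.7% of all genes, 38.2% in either direction).

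Ndufa4, now counted as a subunit of complex IV despite its name (chr6:11900292-11907497, GRCm38), had 79.2 and 76.7 CPM after saline and 66.2, 61.1 and 60.5 after RTX. The groups did not overlap, and the log2 fold change was -0.33 ± 0.07 with an adjusted p of 0.124. Ndufa9, an accessory subunit of complex I, had 84.6 and 89.9 CPM after saline and 74.3, 73.5 and 71.1 after RTX, at -0.27 ± 0.07 (adjusted p of 0.136). Ndufv2, an iron-sulfur subunit of the NADH-oxidising arm, had 74.4 and 70.5 CPM after saline and 62.5, 58.4 and 59.96 after RTX, at -0.28 ± 0.07 (adjusted p of 0.136). Ndufs5, an accessory subunit, had 30.8 and 29.4 CPM after saline and 24.0, 25.1 and 22.8 after RTX, at -0.34 ± 0.09 (adjusted p of 0.141). In these 4 genes every RTX library was below both saline libraries. Without the filter on low counts 3 members passed (Ndufa4, Ndufaf3 and mt-Nd2) and 2.81% of 28767 genes. Ndufaf3, an assembly factor of complex I, lay at -0.49 ± 0.13 (adjusted p of 0.146) with 21.5 and 16.6 CPM after saline and 13.7, 13.8 and 13.6 after RTX.

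Cox4i2, the isoform of Cox4i1 known from lung and for its response to oxygen, had 13.8 and 14.9 CPM after saline and 7.84, 11.1 and 10.7 after s.c. RTX. All RTX values were lower, at a log2 fold change of -0.55 ± 0.17 and an adjusted p of 0.176. Per length it was 5.74% and 6.48% of the sum of Cox4i1 and Cox4i2 after saline and 3.36%, 5.31% and 4.57% after RTX. Ndufa4l2, the hypoxia-inducible relative of Ndufa4, had 10.1 and 8.89 CPM after saline and 7.54, 6.70 and 8.86 after RTX (log2 -0.32 ± 0.17, adjusted p of 0.358). Markers of pericytes and smooth muscle, cells known to express both, summed to 1058 to 1089 CPM after saline and 860 to 1222 after RTX, with 0 of 12 called. In the chimeras, Cox4i2 lay at 21.1 to 29.2 CPM and Ndufa4l2 at 13.7 to 21.6. Outside the chimeras no library exceeded 16.6 for Cox4i2 and 11.8 for Ndufa4l2, but levels across separate experiments are a description. Within the chimeras their fold changes were 0.31 ± 0.14 and 0.27 ± 0.19, with adjusted p of 0.440 and 0.638.

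**Figure D3:**
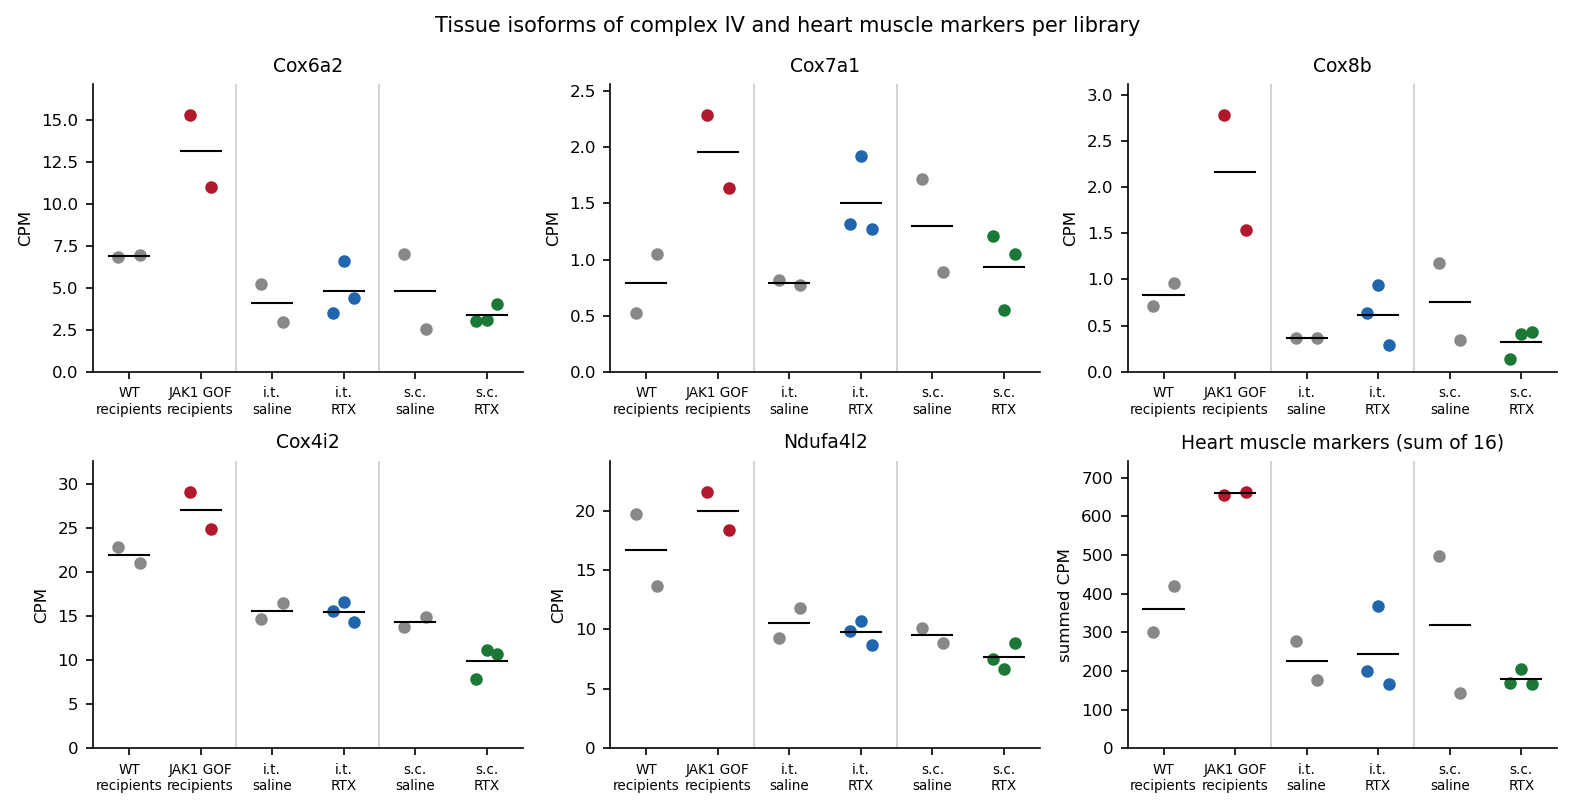
CPM (y axis) of Cox6a2, Cox7a1, Cox8b, Cox4i2 and Ndufa4l2 in each library (dots) with group means (lines), and the summed CPM of 16 heart muscle markers, by group on the x axis. For Cox6a2 and for the heart markers both GOF recipients lie above every other library (11.01 and 15.3 CPM, and 656 to 664 CPM), and for Cox4i2 the 3 s.c. RTX libraries are the lowest (7.84 to 11.1 CPM).

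Of the mitochondrial members, mt-Nd2, mt-Nd1 and mt-Co3 were lower after s.c. RTX at an unadjusted p under 0.05. For mt-Nd2, a membrane subunit of complex I, the values were 1619 and 1216 CPM after saline and 1095, 1140 and 1089 after RTX, at -0.37 ± 0.12 (adjusted p of 0.192). For mt-Nd1, next to the ubiquinone site of complex I, they were 1902 and 1602 CPM after saline and 1490, 1422 and 1417 after RTX, at -0.29 ± 0.10 (adjusted p of 0.198). The groups of both genes did not overlap, and saline 1 was the highest library. For mt-Co3 they were 1547 and 944 CPM after saline and 880, 685 and 886 after RTX (-0.62 ± 0.22, adjusted p of 0.226), and the log2 fold change was -0.25 with Gm28437 added. The value of mt-Nd3 turned from 0.11 to -0.24 with Gm28438, so that 0 of 13 mitochondrial members lay above 0 with copies counted (median -0.21).

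Saline 1 was the higher of its pair in 13 of 13 mitochondrial and 58 of 91 nuclear members. Without it, the mitochondrial median was -0.03 with 4 of 13 above 0, the nuclear median was -0.10, and 9 members were lower at an unadjusted p under 0.05 (4.2% of all genes). Without saline 2 the mitochondrial median was -0.34 and 3 members passed the adjusted threshold (mt-Nd2, mt-Co3 and Ndufaf3), as did 4.81% of all genes. Without RTX 2, 8 members were lower (6.45% of all genes) and the nuclear median was -0.09. With library state as a term, the nuclear median was -0.04 and the mitochondrial median -0.20. Marker sums without overlap between the groups were those of ciliated cells (381 to 580 CPM after saline, 287 to 314 after RTX), macrophages and monocytes (4128 to 4487, then 5175 to 6015), lymphocytes (109 to 135, then 174 to 282), granulocytes (89.4 to 151, then 185 to 254), skeletal muscle (13.3 to 17.2, then 8.07 to 9.47) and heat shock genes (4804 to 5442, then 5690 to 6277), with 0 genes of these lists called. Heart markers summed to 143 and 496 CPM after saline, the higher in saline 1, and 165 to 206 after RTX. Saline 1 was also where Cox6a2 was highest (7.04 CPM, against 2.57 in saline 2 and 3.02 to 4.02 after RTX), and without it the log2 fold change of Cox6a2 went from -0.53 to 0.37. The part of these cells in the members' values was not tested.

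The difference between the RTX effects, s.c. minus i.t., was tested in 1 fit of 10 libraries. No member passed over 17972 genes, of which 0.0556% passed, and 46 members lay lower and 0 higher at an unadjusted p under 0.05 (7.68% and 7.53% of all genes). DESeq2 called 6 members, Ndufa12, Uqcrb, Ndufv2, Ndufs5, Ndufa4 and Uqcrq (1.74% of all genes), with 43 lower at an unadjusted p under 0.05 (1192 of all 17958 genes). The median difference on the log2 scale was -0.31 for nuclear members and -0.29 for mitochondrial members (-0.01 for all genes), with 82 of 91 and 13 of 13 below 0. The smallest p-values belonged to Ndufa12 (-0.62 ± 0.13, adjusted p of 0.108), Ndufs5 (-0.61 ± 0.13, 0.114), Ndufa4 (-0.55 ± 0.12, 0.118) and Uqcrb (-0.55 ± 0.12, 0.123). The member mt-Nd2 passed without s.c. saline 2 (0.316% of all genes), and Ndufa12 without s.c. RTX 1 (0.504%). With library state in a 14-library fit, the nuclear median was -0.08, the mitochondrial median -0.30, and 1 member lay lower at an unadjusted p under 0.05 (3.72% of all genes). Without s.c. saline 1 the mitochondrial median was -0.15, and without s.c. saline 2 it was -0.49. Without i.t. RTX 2 the nuclear median was -0.22. Some marker lists lay on the same side: of those tested, 0 of 16 heart genes lay above 0 (median difference -1.05), 1 of 11 skeletal muscle genes (-1.50) and 0 of 8 ciliated cell genes (-0.75), with 0 called. Type 2 cell, endothelial and pericyte and smooth muscle medians were -0.21, -0.24 and -0.18. Other lists went the other way: 6 of 8 granulocyte genes lay above 0 (0.44), 6 of 8 macrophage and monocyte genes (0.16) and 7 of 10 fat genes (0.20). Of 10 heat shock genes 6 lay above 0 (0.68) and 2 were called lower. Lymphocyte genes were split, with 4 above and 4 below 0 (-0.06). Their part in the members' values was not tested. The routes were separate experiments with their own saline groups.

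The balance between the genomes was described by the ratio of summed CPM, with no test since the members were chosen. In the chimeras, the mitochondrial sum was 3.78 and 3.00 times the nuclear sum in WT recipients and 3.55 and 3.13 times in GOF recipients, so the WT libraries enclosed the GOF libraries. After i.t. saline it was 3.53 and 3.45 times and after RTX 3.27, 3.36 and 3.31 times. These i.t. groups did not overlap, and with copies counted they were 3.89 and 3.73 against 3.70, 3.66 and 3.69. After s.c. saline it was 3.97 and 3.099 times and after RTX 3.11, 3.16 and 3.25 times, with saline 1 the highest of the series and saline 2 just below the RTX libraries. The mean log2 ratio, treated minus control, was -0.01 in the chimeras, -0.07 for i.t. and -0.15 for s.c. RTX. Pooled within-group SDs of the log2 ratio were 0.19, 0.02 and 0.15. With copies counted, the s.c. ratios were 4.35 and 3.55 after saline and 3.52, 3.64 and 3.65 after RTX, and the mean log2 difference was -0.12 with overlapping groups. Only the i.t. groups did not overlap among the 3 comparisons, with or without copies, and there state and treatment coincide.

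**Figure D4:**
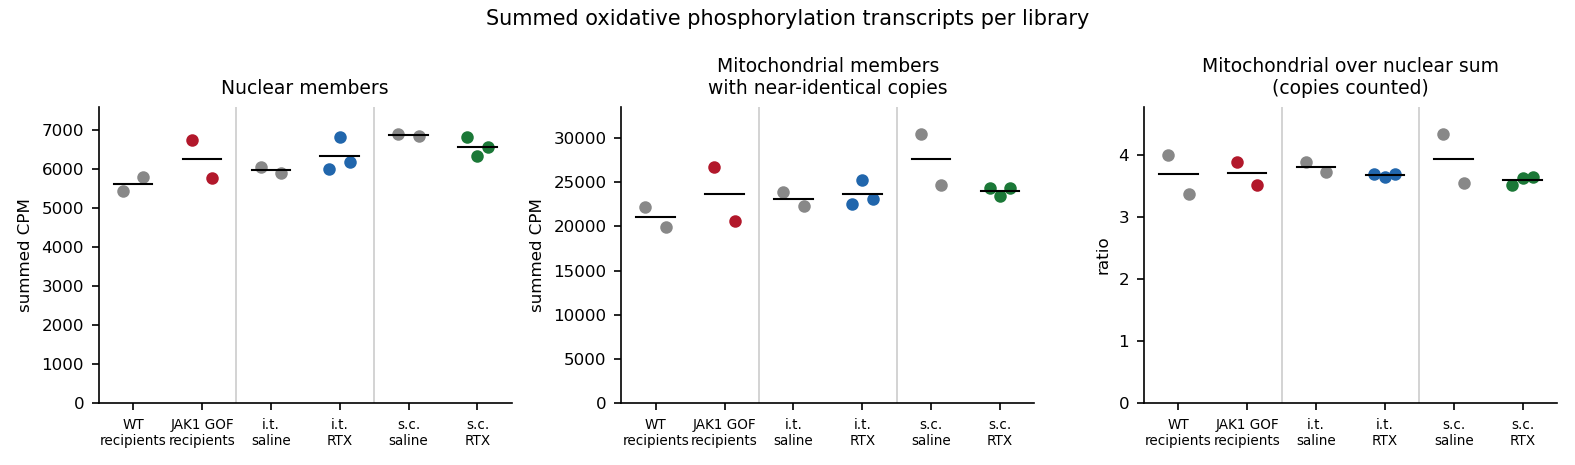
Summed CPM of the 91 nuclear members, summed CPM of the 13 mitochondrial members with their copies, and the ratio of the sums with copies counted on both sides (y axes), for each library (dots) with group means (lines), by group on the x axis. Ratios with copies run from 3.39 to 4.35, and s.c. saline 1 is the highest in the middle and right panels (30469 CPM and 4.35).

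The nuclear members are short genes by transcript, and fold changes of other genes followed transcript length in the same libraries. The median transcript of a nuclear member was 680 bases and that of the other protein-coding genes tested in the chimera comparison was 2499 bases, and 70.3% of nuclear members but 11.53% of the others were under 1000 bases. Among other genes under 750 bases the median log2 fold change was 0.13 in the chimeras, 0.09 for i.t. and -0.11 for s.c. RTX. Among those of 4000 bases and over, it was -0.07, -0.05 and 0.06. The sign thus turned with length in each comparison. The 52 nuclear members under 750 bases had medians of 0.25, 0.24 and -0.15, farther from 0 than other genes of that length in each comparison. The 11 of 750 to 1000 bases had medians of 0.27, 0.09 and -0.19, against 0.13, 0.07 and -0.10 for other genes of that length. The 15 of 1000 to 1500 bases had medians of 0.16, 0.04 and -0.09, against 0.08, 0.05 and -0.09 for other genes. The 9 of 1500 to 2500 bases had 0.05, 0.05 and -0.03, against 0.03, 0.03 and -0.02. The part of length in the members' values was not tested.

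**Figure D5:**
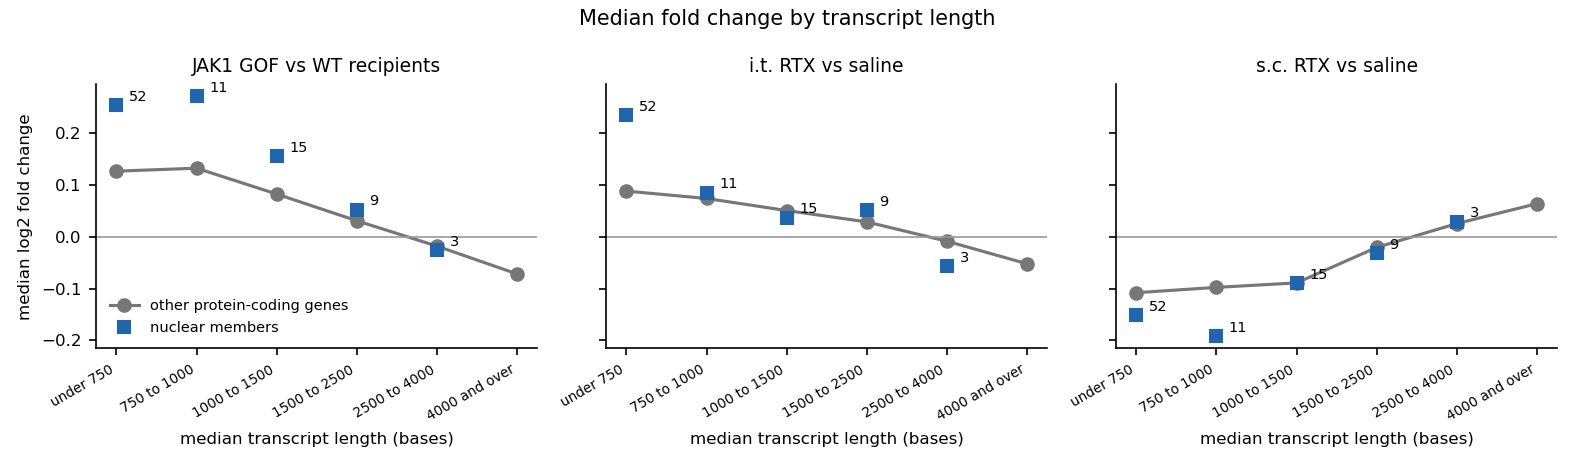
Median log2 fold change (y axis) by median transcript length (x axis) for other protein-coding genes (grey line) and nuclear members (blue squares, with the number of members beside each). The grey line crosses 0 in each panel, from 0.13 to -0.07 in the chimeras, 0.09 to -0.05 for i.t. and -0.11 to 0.06 for s.c. RTX, and squares of bins with fewer than 20 members rest on few genes.

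Ribosomal protein genes, a class of other short and abundant transcripts chosen after the members' values were seen, lay on the same side. Medians for the cytosolic set were 0.13, 0.10 and -0.07 and for the mitochondrial set 0.14, 0.16 and -0.07 on the log2 fold change scale in the chimera, i.t. and s.c. comparisons, with 0 genes of either set called by edgeR. Values of the nuclear members were 0.22, 0.16 and -0.14 over the 90 that are annotated as protein-coding.

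Genes of the wider pathway are given by their median log2 fold changes in the chimera, i.t. and s.c. comparisons, in that order. Of 13 electron carriers and feeders outside the name rule, which include cytochrome c (Cycs) and cytochrome c1 (Cyc1), 0 were called in any comparison, with medians of 0.12, 0.11 and -0.08. Above 0 lay 12, 8 and 1 of the 13. The 35 assembly factors of complexes I to V outside the rule had medians of 0.10, 0.10 and -0.05 and 0 calls, with 24, 31 and 13 above 0. The 26 tested genes of mitochondrial transcription and RNA handling, among them Tfam, which packages and transcribes the mitochondrial genome, and the mitochondrial RNA polymerase Polrmt, had medians of -0.02, 0.04 and 0.05 and 0 calls. Tfam ranged from 23.5 to 26.9 CPM over the 14 libraries. The 11 tested regulators, such as the coactivator Ppargc1a (4.57 to 7.61 CPM), had medians of -0.01, -0.05 and 0.11 and 0 calls. Medians of the 13 genes of the TCA cycle, which feeds complexes I and II, were 0.04, 0.04 and -0.08, and those of the 14 genes of glycolysis were 0.02, 0.07 and 0.14, again with 0 calls. Among 17 genes of outer membrane and import, 1 was called higher after i.t. RTX and 1 lower in the difference of the RTX effects. Their medians were 0.14, 0.12 and -0.01, with 15, 15 and 7 above 0.

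Promoter sequences of the nuclear members were described as well. RefSeq promoter windows (GRCm38) of 300 bases, 250 before to 50 after the start, were found for 74 of the 91 nuclear members. On either strand, the NRF1 motif (GCGCA, any base, then GCGC) was present in 24.3% of them and in 4.78% of 27025 promoters of the same length. The ETS motif CCGGAAG was present in 24.3% and 9.12%, the YY1 motif AAGATGGC in 13.5% and 2.88%, and the TATA box TATAAA in 8.11% and 14.2%. NRF1, ETS factors such as GABP and YY1 are known regulators of respiratory genes. Stretches of 60 bases are shown for Ndufs5 (chr4:123718245-123718304, minus strand), Cox6a1 (chr5:115349081-115349140, minus strand) and Uqcr11 (chr10:80406848-80406907, minus strand). They begin 118, 182 and 86 bases before the start, in that order. They carry matches, in capitals, to the NRF1 motif or, in Uqcr11, the ETS motif.
Ndufs5: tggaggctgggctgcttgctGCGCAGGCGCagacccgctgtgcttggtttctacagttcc
Cox6a1: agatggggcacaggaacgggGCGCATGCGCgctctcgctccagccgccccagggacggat
Uqcr11: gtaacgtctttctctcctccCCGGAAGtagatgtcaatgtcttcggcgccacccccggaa
The windows of Cox7a1, Cox6b2 and Ndufa12 held no match to the 4 motifs. A match is a description of letters and not a measured binding site. The 27025 promoters were not limited to genes counted in these lungs. The part of the motifs in the members' fold changes was not tested.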

How the data were processed

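The authors deposited 1 table of estimated counts per experiment (3 tables, 54347 genes, 24.2% of values not whole), as Salmon gives. Per the labels' protocols, oligo-dT beads enriched mRNA, and libraries used NEBNext Ultra II chemistry. The tools, per the submitters' processing notes, were FastQC 0.11.8, Trim Galore 0.6.6, STAR 2.7.5b and Salmon 1.2.1 and the build GRCm38. The annotation release and strand setting are not given in the sources used here. Positions came from GENCODE M21.

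Counts were rounded. Each experiment was fitted in edgeR 4.0.16 (TMM, filterByExpr with a minimum count of 10 and total of 15, robust quasi-likelihood test), with Benjamini-Hochberg adjustment over all genes and a threshold of 0.05. Single-library CPM used total counts, and group fold changes use TMM scaling. All 104 members passed the filter in each comparison. Copies were transcripts of GENCODE M21 with at least 95% identity over at least 100 bases and 50% of the shorter transcript (blastn 2.17.0). Transcript length was the median over a gene's basic protein-coding transcripts. Members and lists were chosen with earlier results of these data known. Named genes were the mitochondrial members, per comparison those called or else the 4 lowest p-values, fixed isoform sets, complex II, core subunits and those nearest the CPM minimum. Further genes were named by unadjusted p or as lying in a list. Counting copies with their member was added after seeing the data.

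Alternatives were DESeq2 1.42.0, limma 3.58.1 voom, other scalings and filters, no robust prior, all 14 libraries with and without state, a replicate block, a threshold of 0.1 and leaving out each library. Replicates differed by more than sampling noise (chi-square per degree of freedom of 9.57 to 23.1). The fits were tested on simulated data with 2-fold and 4-fold changes, and smaller changes were not simulated. Of the 2-fold changes, 68 of 106 (chimera), 63 of 97 (intrathecal) and 63 of 98 (subcutaneous) were found. Of the 4-fold changes, 82 of 94, 88 of 103 and 95 of 102 were found. False calls numbered 11, 16 and 15. Floors of 3 counts, 0.123 to 0.165 CPM, cover counting error only.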

Additional observations from a re-analysis of the deposited data

How the results depend on the processing

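With no filter on low counts, members past the threshold numbered 3, 11 and 3 in the chimera, intrathecal and subcutaneous comparisons (2.81%, 2.27% and 2.81% of all genes). In DESeq2 they numbered 1, 1 and 3 (1.76%, 1.46% and 4.38% of all genes), and 6 for the difference of the RTX effects (1.74%). At a threshold of 0.1 they numbered 2 and 1 in the chimera and intrathecal comparisons (1.65% and 0.709% of all genes). Leaving out 1 library gave 0 to 1 in the chimera, intrathecal and difference tests (0.465% to 5.16%, 0.111% to 0.234% and 0% to 0.504% of all genes) and 0 to 3 in the subcutaneous one (0% to 4.81%). With library state as a term the nuclear medians were 0.16 (chimera), 0.024 (intrathecal), -0.036 (subcutaneous) and -0.081 (difference). Leave-one-out nuclear medians ran from 0.060 to 0.35 (chimera), 0.093 to 0.21 (intrathecal), -0.17 to -0.095 (subcutaneous) and -0.35 to -0.22 (difference). Mitochondrial medians, in that order, ran from -0.040 to 0.33, 0.068 to 0.14, -0.34 to -0.033 and -0.49 to -0.15. The treated minus control difference in the mean log2 ratio of mitochondrial to nuclear counts was also taken with 1 library left out. This difference ran from -0.18 to 0.16 (chimera), -0.091 to -0.057 (intrathecal) and -0.32 to 0.033 (subcutaneous). In the chimeras it was 0.088 when each library's sums were replaced by the CPM of its median mitochondrial and median nuclear gene, and 0.0083 with copies summed, and in the intrathecal comparison it was -0.049 with copies summed. Of 712 settings over 41 single-gene results, 662 kept direction and side of the threshold, 30 newly passed it and 20 changed sign. With copies summed, the changed signs were Atp5g2 at 0.099, mt-Co2 at 0.18, mt-Co3 at 0.21 and mt-Nd3 at 0.34 in the chimeras, mt-Co2 at 0.047 and mt-Co3 at 0.027 in the intrathecal comparison and mt-Nd3 at -0.24 in the subcutaneous one. With library state they were mt-Co2 at 0.20 in the chimeras and Cox7a1 at -0.31, mt-Co2 at 0.24 and mt-Nd3 at -0.23 in the intrathecal comparison. Leaving out 1 library gave ranges that crossed 0: in the chimeras -0.63 to 0.49 for mt-Co2, -0.26 to 0.15 for mt-Co3, -0.094 to 0.85 for mt-Atp6 and -0.31 to 0.16 for mt-Nd3, in the intrathecal comparison -0.31 to 0.022 for mt-Co2 and -0.22 to 0.72 for mt-Nd3, and in the subcutaneous one -0.27 to 0.64 for mt-Nd3 and -1.07 to 0.37 for Cox6a2. The cause was not tested. Deviations from the group mean were correlated between same-numbered libraries. The r was 0.0171 in the chimeras, -0.383 and -0.261 in the intrathecal and -0.151 and -0.0986 in the subcutaneous experiment. In a group of 2 libraries the deviations mirror each other, so these values cannot decide whether the numbers pair libraries. A replicate block called 0 members in each test (0.711%, 0.288%, 0% and 0.0389% of all genes), with nuclear medians of 0.23, 0.17, -0.15 and -0.37. Where a leave-one-out fit left 1 library in a group, that library was assumed to vary like the others.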
